A study of Trachinotus ovatus with 6 samples.

Results

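A small set of genes of the golden pompano, the marine fish Trachinotus ovatus, stood far higher in the ovary than in the testis. These ovary-biased genes were chosen by 2 limits on the values: at least 1 FPKM in each ovary, and a mean of the ovaries at least 100 times the mean of the testes. FPKM counts the fragments sequenced from a gene, scaled to its length in kilobases and to 1000000 fragments of the library, so it compares levels per length within a library. The limits were met by 86 of 22062 genes, or 0.39% of the table, and the opposite limits (testis over ovary) by 1566 genes, or 7.1%. Both counts hold for the values as deposited. Other scalings gave 70 to 213 ovary-biased genes, and the opposite count is not given for them. Because the values as deposited chose the genes, the contrast of ovary with testis is described below and carries no test.

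RNA sequencing covered 3 ovaries (label code TOQC) from females and 3 testes (label code TOQX) from males, taken at 1 experimental base in Shenzhen. The code stands in the label field for genotype, and the field for treatment says only that the gonad was removed. The sources used here give neither the age of the fish nor the stage of the gonads. The table pairs its identifiers with no gene name, so the labelled tissue could not be checked against marker genes and what the 86 genes encode is not stated here. Loci are therefore given by linkage group and position in the coordinates of the deposited table, and the sources used here do not name its genome build. Read depth is unknown, since only FPKM values were used.

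As background, the fish ovary consists largely of growing oocytes, each wrapped in follicle cells. A growing oocyte stores large amounts of maternal RNA for the early embryo, takes up yolk proteins that the liver makes, and builds an egg envelope from zona pellucida proteins. The follicle cells make oestrogen and signal to the oocyte. In a whole gonad, more cells of a type and more RNA per cell cannot be told apart.

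The ovary-biased genes were mostly among the abundant genes of the ovary. Their median level was 452, 563 and 503 FPKM in ovaries 1, 2 and 3, and 2.73, 0.634 and 1.2 FPKM in testes 1, 2 and 3. Over all genes of the table the order was turned, with medians of 0.463, 0.947 and 0.723 FPKM in the ovaries and 6.0, 5.1 and 5.83 FPKM in the testes. All 86 genes stood at 9.04 FPKM or more in every ovary, far above the lower limit of 1 FPKM. In the testes, 34 of the 86 genes reached 1 FPKM in every library and 24 stayed under 1 FPKM in every library. A single gene stayed under 0.1 FPKM in all 3 testes, at 17.2, 32.2 and 20.7 FPKM in the ovaries, and lies on linkage group 8 from 25215236 to 25219311. A testis level low relative to the ovary level is required by the limits and is no finding. Whether the listed testis values reflect expression in the testis was not tested. Values above 0 were listed for nearly every gene: 85 of 86 were above 0 in each testis. This is not particular to the set, since 21410 of all 22062 genes were above 0 in each testis too.

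**Figure D1:**
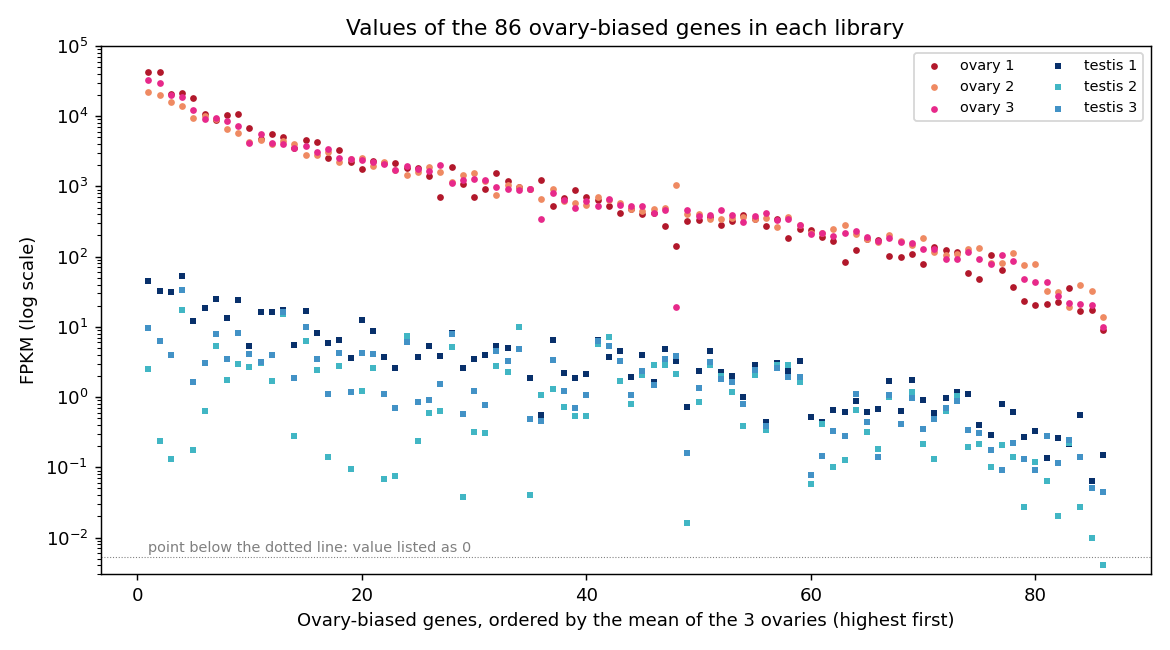
FPKM of the 86 ovary-biased genes in the 3 ovaries (circles) and the 3 testes (squares), on a log scale, with genes ordered by the mean of the ovaries. Ovary values lie between 9.04 and 43035 FPKM, testis values between 0 and 53.4 FPKM, and no gene has an ovary below any of its testes.

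By abundance, no gene of the set had a mean of the ovaries under 10 FPKM. The class from 10 to under 100 FPKM held 12 genes, that from 100 to under 1000 FPKM held 41, that from 1000 to under 10000 FPKM held 28, and 5 genes had 10000 FPKM or more. Among all genes with at least 1 FPKM in each ovary, the ovary-biased genes were 0.329% of the 3644 genes in the lowest of these classes, 8.12% of 505 in the next, 32.6% of 86 in the one after it and 5 of 10 in the highest. The class from 1 to under 10 FPKM held 4608 genes and none of the set. A gene in that class could enter only with a mean of the testes under 0.1 FPKM, so the limits themselves favour abundant genes. Of the 100 genes with the highest mean over the ovaries, 33 belonged to the set, and of the 20 highest, 9 did. Genes 10 to under 100 times higher in ovary, 277 in all, had 15 and 3 places in the same lists.

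A large part of the ovary signal came from these genes. They held 33.3%, 28.5% and 30.3% of the summed FPKM in ovaries 1, 2 and 3, a mean of 30.7% ± 2.42 (SD, n = 3). In testes 1, 2 and 3 the same genes held 0.108%, 0.0316% and 0.0479%, a mean of 0.0625% ± 0.0403 (SD, n = 3). The ovary share was unevenly spread over the genes. The 5 most abundant made up 54.9%, 43.7% and 51.0% of the set's sum in ovaries 1, 2 and 3, and the 20 most abundant 86.9%, 80.3% and 83.9%. By class, the 5 genes at 10000 FPKM or more held 15.4% ± 2.92 of the whole ovary sum, and the 28 genes from 1000 to under 10000 FPKM held 13.1% ± 0.337 (SD, n = 3). The 41 genes from 100 to under 1000 FPKM added 2.13% ± 0.351 and the lowest 12 genes 0.0818% ± 0.0289 (SD, n = 3). The share of the highest class differed between ovaries, at 18.3%, 12.4% and 15.4%, while that of the next class stayed within 12.7% to 13.4%. With the 32 genes whose span overlaps another gene left out, the set held 18.7% ± 1.47 (SD, n = 3).

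**Figure D2:**
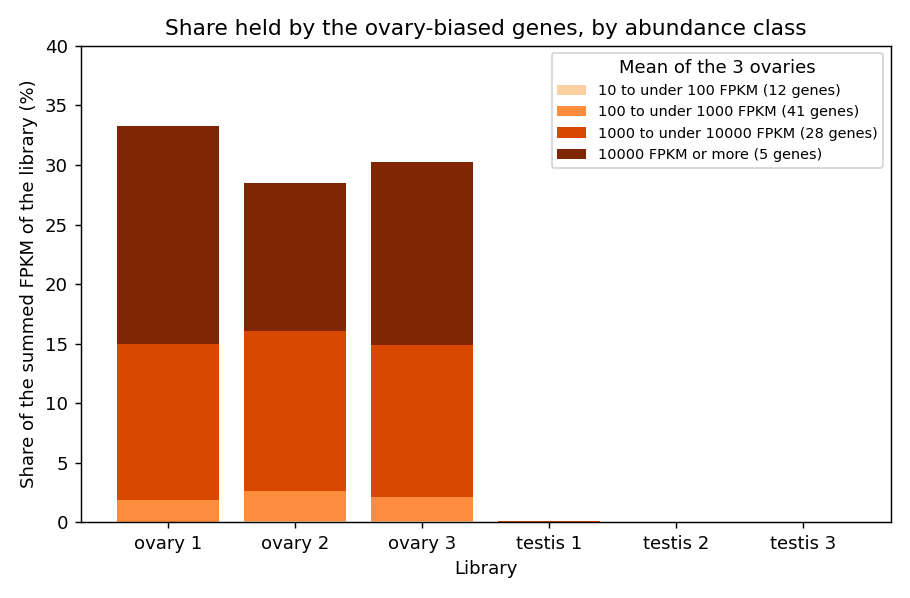
Share of the summed FPKM of each library held by the ovary-biased genes, as bars stacked by the mean of the ovaries. Ovary bars reach 33.3%, 28.5% and 30.3%, and the testis bars, 0.0316% to 0.108%, are too low to see on this axis.

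The most abundant gene of the set, SCSFRI_TO_T_00128874, also had the highest mean over the ovaries of any gene in the table. It lies on linkage group 20 from 19012957 to 19028200 and had 43035, 22439 and 33181 FPKM in ovaries 1, 2 and 3, against 44.7, 2.52 and 9.71 FPKM in testes 1, 2 and 3. Its lowest ovary stood 502 times above its highest testis. Ovary 1 was the highest ovary and testis 1 the highest testis, an order that recurred in the next genes. The ratio of the means was 1731, and 5376 without testis 1. The span overlaps those of 3 other genes, whose means over the ovaries were 52.9, 0.649 and 0.00971 FPKM. First place by the mean rested on ovary 2. In ovaries 1 and 3 a gene outside the set was higher, at 46785 and 40010 FPKM, but it had 9122 FPKM in ovary 2. That gene lies on linkage group 16 (14746782 to 14800512).

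A short locus of 1679 bp on linkage group 10, from 14906701 to 14908379, was nearly as abundant, with 42367, 19911 and 29412 FPKM in the ovaries, against 32.9, 0.237 and 6.22 FPKM in the testes. On linkage group 15, the gene from 15017740 to 15018672 reached 20766, 15995 and 19878 FPKM in the ovaries, against 30.9, 0.132 and 4.02 FPKM in the testes. The largest ratio of means in the set, 2851, belonged to SCSFRI_TO_T_00014452 on linkage group 5, from 16648185 to 16649640. It had 18398, 9481 and 12163 FPKM in the ovaries, against 12.2, 0.179 and 1.64 FPKM in the testes. In all of these genes testis 1 was many times higher than testis 2, so the mean of the testes, and with it the ratio, rested mainly on testis 1. Without testis 1 the ratios were 9465 for the locus on linkage group 10, 9105 for that on linkage group 15 and 14696 for SCSFRI_TO_T_00014452. None of the 3 spans overlaps another gene. The fourth largest ratio belonged to a less abundant gene, on linkage group 22 from 12675027 to 12676727. It had 2131, 1739 and 1716 FPKM in the ovaries, against 2.63, 0.0744 and 0.698 FPKM in the testes, a ratio of 1641, and of 4821 without testis 1.

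The fifth gene above 10000 FPKM behaved differently in testis. On linkage group 2, from 19573380 to 19582014, it had 21044, 14160 and 18560 FPKM in the ovaries, against 53.4, 17.3 and 33.5 FPKM in the testes, the highest testis level of the set. Its ratio of means was 516, and 706 without testis 1.

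Another 5 genes completed the 10 most abundant. The gene from 14087992 to 14089125 on linkage group 7 stood at 10714, 10046 and 9059 FPKM in the ovaries, against 18.7, 0.635 and 3.08 FPKM in the testes. That on linkage group 6 (18883778 to 18970158) stood at 8811, 8986 and 9423 FPKM in the ovaries, against 25.1, 5.29 and 8.0 FPKM in the testes. These genes differed little between ovaries, by 8.38% and 3.47% of their means (SD, n = 3). On linkage group 9, the gene from 7479038 to 7480825 reached 10230, 6503 and 8658 FPKM in the ovaries, against 13.4, 1.73 and 3.49 FPKM in the testes. A second gene of linkage group 2 (36520321 to 36545130) reached 10845, 5771 and 7160 FPKM in the ovaries, against 23.7, 2.94 and 8.25 FPKM in the testes. The gene from 22859928 to 22877763 on linkage group 13 stood at 6799, 4233 and 4098 FPKM in the ovaries, against 5.32, 2.64 and 4.09 FPKM in the testes. The last was the most even of the 10 across testes, and its ratio of 1256 became 1499 without testis 1. For the other 4 the ratios were 1330, 709, 1362 and 681 in the order given, and 5353, 1365, 3244 and 1417 without testis 1. Together the 10 most abundant genes held 24.2%, 17.8% and 20.7% of the summed FPKM of ovaries 1, 2 and 3.

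Over the whole set the ratio of means ran from 101 to 2851 with a median of 379, and the median was 574 without testis 1. The size of the ratios depended on how libraries were put on one scale. The median of the same 86 genes was 257 with TPM, 544 after quantile normalization and 1780 with median ratio scaling, which multiplied single ratios by 3.68 to 5.36. On the values as deposited, the ratio lay under 200 for 22 genes, from 200 to under 500 for 29, from 500 to under 1000 for 17 and at 1000 or more for 18. A stricter reading sets the lowest ovary against the highest testis: this quotient had a median of 197, ran from 5.01 to 775 and was 100 or more for 60 of the 86 genes. The ratio contains the mean of the ovaries, so it is tied to the abundance classes by construction. In the classes from 10 and from 100 FPKM its median was 236 and 220. It was 705 in the class from 1000 FPKM and 1731 at 10000 FPKM or more. All 18 genes with ratios of 1000 or more had a mean of the ovaries of at least 100 FPKM. Of the whole set, 74 of 86 genes did.

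Ratios ran on without a gap at the limit. Just inside, a gene of linkage group 15 (24404922 to 24408041) stood at 630, 707 and 519 FPKM in the ovaries, against 6.54, 5.62 and 6.25 FPKM in the testes, a ratio of 101. A locus on linkage group 14 (6340985 to 6351391) and another on linkage group 11 (10886055 to 10892337) had ratios of 103 and 104. Just outside, a gene of linkage group 5 (20026071 to 20037995) stood at 31.6, 14.7 and 20.6 FPKM in the ovaries, against 0.381, 0.112 and 0.196 FPKM in the testes, a ratio of 97.0. The next were loci on linkage groups 2 (21556535 to 21569056) and 12 (23909508 to 23912827), with ratios of 88.5 and 88.0. Without testis 1 the ratio of the locus on linkage group 5 was 144. The limit of 1 FPKM in each ovary kept out 47 genes that met the other limit. Of these, 21 had a ratio of at least 100 and a highest mean over the ovaries of 1.31 FPKM, and 26 were listed at 0 in all 3 testes, with a highest mean of 1.85 FPKM. The 3 largest ratios belonged to gene models that share 1 span on linkage group 4 (6713901 to 6714790), with means over the ovaries of 0.00551, 0.00463 and 0.00422 FPKM.

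The spread between ovaries differed between abundance classes and depended on the scale. The coefficient of variation, which is the SD over the 3 ovaries as a percent of their mean, had a median of 16.6% over the 86 genes. It was 21.6% over the 277 genes 10 to under 100 times higher in ovary and 30.4% over the 8853 genes with at least 1 FPKM in each ovary. This order of the sets held with TPM (22.0%, 24.2% and 37.7%) but not with median ratio scaling (37.4%, 35.7% and 22.0%), nor after quantile normalization (14.8%, 16.5% and 12.5%). On the values as deposited, the classes from 100 and from 1000 FPKM had medians of 14.4% and 15.8% in the set, against 13.5% and 17.9% over the other genes of the class with at least 1 FPKM in each ovary. From 10 to under 100 FPKM the median was 34.9% in the set, against 25.5% over the others. At 10000 FPKM or more it was 31.3% over the 5 genes of the set, against 24.1% over the 5 others. These differences between sets were not tested. The highest ovary was under 2 times the lowest in 71 of the 86 genes and 3 times or more in 6. Without ovary 1, 2 or 3 the median over the set was 8.89%, 17.2% or 20.5%, each over the 2 ovaries left. The comparison sets were not recomputed in this way.

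The direction in which ovary 1 departed from the others depended on abundance. All 5 genes at 10000 FPKM or more were highest in ovary 1 and lowest in ovary 2. From 1000 to under 10000 FPKM, 15 of 28 genes were highest in ovary 1 and 9 were lowest there. From 100 to under 1000 FPKM, 11 of 41 genes were highest in ovary 1 and 24 lowest. From 10 to under 100 FPKM, 10 of 12 were lowest in ovary 1. Among the other genes with at least 1 FPKM in each ovary, 82.4% of those from 10 to under 100 FPKM were lowest in ovary 1, close to the 83.3% of the set. All 5 others at 10000 FPKM or more were highest there too. From 100 to under 1000 FPKM, 36.2% of 464 others were highest in ovary 1 and 47.8% lowest. In the class from 1000 FPKM the set was less uniform, with 53.6% highest in ovary 1, against 87.9% of 58 others, a difference that was not tested. FPKM is a relative unit, so a larger share for abundant genes lowers the rest of the same library. The part of this in the pattern of ovary 1 was not tested.

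**Figure D3:**
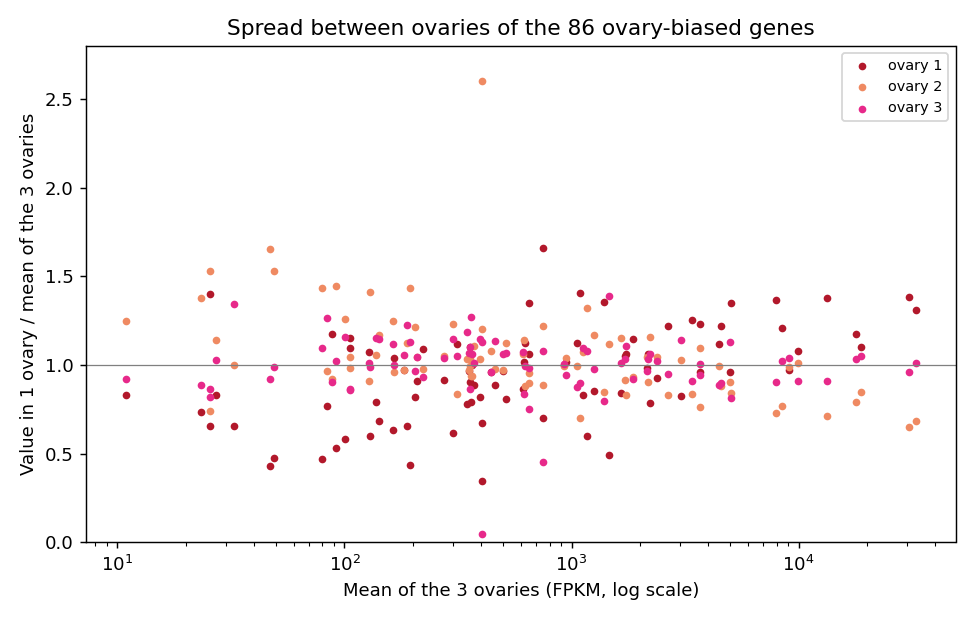
Value of each ovary-biased gene in 1 ovary divided by its mean over the 3 ovaries, against that mean on a log scale. Ovary 1 is the lowest for 10 of 12 genes under 100 FPKM and the highest for all 5 genes at 10000 FPKM or more, and the gene with a mean of 403 FPKM stands apart.

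On the values as deposited, the steadiest gene of the set lies on linkage group 13 from 14575238 to 14581819. It had 925, 916 and 925 FPKM in the ovaries, a coefficient of variation of 0.525%, against 1.86, 0.0406 and 0.492 FPKM in the testes. It held 0.116%, 0.139% and 0.126% of the summed FPKM of ovaries 1, 2 and 3, so its evenness depends on the scale. Single genes were not ranked by spread on other scales. After the gene of linkage group 6, the next steadiest was another gene of linkage group 13 (12964431 to 12969347). Its ovaries had 172, 160 and 166 FPKM, against 0.679, 0.185 and 0.142 FPKM in the testes. A gene of linkage group 9 (6647714 to 6650634) followed, with 2123, 2255 and 2089 FPKM in the ovaries, against 3.7, 0.0683 and 1.09 FPKM in the testes. Evenness across ovaries did not extend to the testes. Testis 1 was 45.9 times testis 2 in the steadiest gene and 54.2 times in that on linkage group 9. Both quotients divide by testis 2 values under 0.1 FPKM. Testes 1 and 2 were closer in the second gene of linkage group 13, at 0.679 and 0.185 FPKM. They were also closer in the gene of linkage group 6, at 25.1 and 5.29 FPKM.

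One gene varied far more than any other. On linkage group 16, from 14703755 to 14800512, it had 140, 1048 and 19.4 FPKM in ovaries 1, 2 and 3, a coefficient of variation of 139.7%, against 3.31, 2.11 and 3.87 FPKM in the testes. Ovary 2 alone brought it into the set: its ratio of means was 130, and 25.7 without ovary 2. This was the longest span of the set, 96758 bp, and it overlaps 2 abundant genes. One of these (14746782 to 14800512) ends at the same base and had 46785, 9122 and 40010 FPKM in the ovaries, against 2660, 5819 and 4017 FPKM in the testes. It was lowest in ovary 2, where the longer gene model was highest. Whether reads were divided between the overlapping models was not tested.

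The other genes with a wide spread were less extreme. On linkage group 10 (11892311 to 11941904) a gene had 20.2, 78.0 and 43.5 FPKM in the ovaries, against 0.327, 0.117 and 0.0904 FPKM in the testes. On linkage group 22 (14554269 to 14556293) a gene had 23.4, 75.2 and 48.6 FPKM in the ovaries, against 0.273, 0.0273 and 0.133 FPKM in the testes. Both were lowest in ovary 1 and highest in ovary 2, as most genes of their abundance were. A gene on linkage group 3 (13270447 to 13274647) was highest in ovary 1 instead, with 1244, 667 and 339 FPKM in the ovaries, against 0.55, 1.08 and 0.461 FPKM in the testes. It lies inside the span of a gene (13214513 to 13274803) with 323, 114 and 503 FPKM in the ovaries. It also lies inside that of another (13249841 to 13293224) with 91.8, 166 and 131 FPKM. Whether reads were divided between these models was not tested.

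Testes differed in these genes more than ovaries did, and in a recurring order. The coefficient of variation over the testes had a median of 63.7% and exceeded that over the ovaries in 69 of 86 genes. Over the genes 10 to under 100 times higher in ovary the medians were 23.4% for the testes and 21.6% for the ovaries. Over all genes of the table they were 17.7% for the testes and 41.5% for the ovaries. The testis values of the set are low, with medians of 2.73, 0.634 and 1.2 FPKM in testes 1, 2 and 3. Counting error in them was not measured. Testis 1 was the highest testis for 77 of the 86 genes (89.5%) and testis 2 the lowest for 70 (81.4%). Over all genes these shares were 47.7% and 57.9%, and over the genes 10 to under 100 times higher in ovary 50.2% and 60.6%. The order testis 1 above testis 3 above testis 2 held for 67 genes (77.9%), against 42.2% of the genes 10 to under 100 times higher in ovary and 38.3% of all genes. The median quotient of testis 1 over testis 2 was 3.09 over the 85 genes above 0 in each testis, with quartiles of 1.6 and 9.03. It was 1.29 over the genes 10 to under 100 times higher in ovary and 1.16 over all genes. Library sums were 490967, 486141 and 485022 FPKM in testes 1, 2 and 3. FPKM is already scaled to the fragments of each library, and the set held 0.108% of a testis sum at most. The sums therefore cannot show such a difference. The mean of the testes entered the choice of the genes, but the order of the testes did not.

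On a log scale, the testis values as a percent of the ovary mean had a narrower range in testis 1 than in testis 2. In testis 1 they ran from 0.0733% to 2.14% with a median of 0.4%. In testis 3 they ran from 0.0123% to 1.01% with a median of 0.217%, and in testis 2 from 0 to 1.16% with a median of 0.114%. No gene of the set stood under 0.05% of its ovary mean in testis 1, whereas 25 did in testis 2 and 13 in testis 3. Across the 85 genes above 0 in each testis, the log10 of the testis value and of the ovary mean had Pearson's r of 0.913 in testis 1, 0.764 in testis 3 and 0.442 in testis 2. In the 273 genes 10 to under 100 times higher in ovary and above 0 in each testis, r was 0.886 in testis 1, 0.917 in testis 2 and 0.908 in testis 3. These r describe genes of the same libraries, and the limit on the ratio ties the mean of the testes to that of the ovaries.

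At the low end of testis 2, 13 genes were above 0 but under 0.01% of their ovary mean, a bound chosen after the values were seen. They ran from 0.000697% to 0.00768%, and the next gene had 0.0139%. As a quotient this step was no wider than the widest among the 13, but as a difference in percent it was wider. In testis 1 the same genes had 0.0916% to 0.208% of the ovary mean, and in testis 3 0.0123% to 0.0534%, although their ovary means ran from 395 to 32885 FPKM. They lie on 11 linkage groups, 10 of them overlap no other gene, and they include the loci on linkage groups 20, 10, 15, 5 and 7 described above. The 22 genes with ratios under 200 had medians of 1.0% in testis 1, 0.611% in testis 2 and 0.671% in testis 3. The ratio of a gene fixes the mean of its testis percents, so these levels follow from how the 22 genes were chosen. Of the 22, 13 followed the order testis 1, testis 3, testis 2. The source of the testis signal was not tested. The 1 value listed at 0 was that of a gene on linkage group 4 (33091946 to 33094163) in testis 2, which had the lowest level of the set, a mean of 10.9 ± 2.42 FPKM (SD, n = 3) over the ovaries. Testes 1 and 3 listed it at 0.151 and 0.0449 FPKM.

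**Figure D4:**
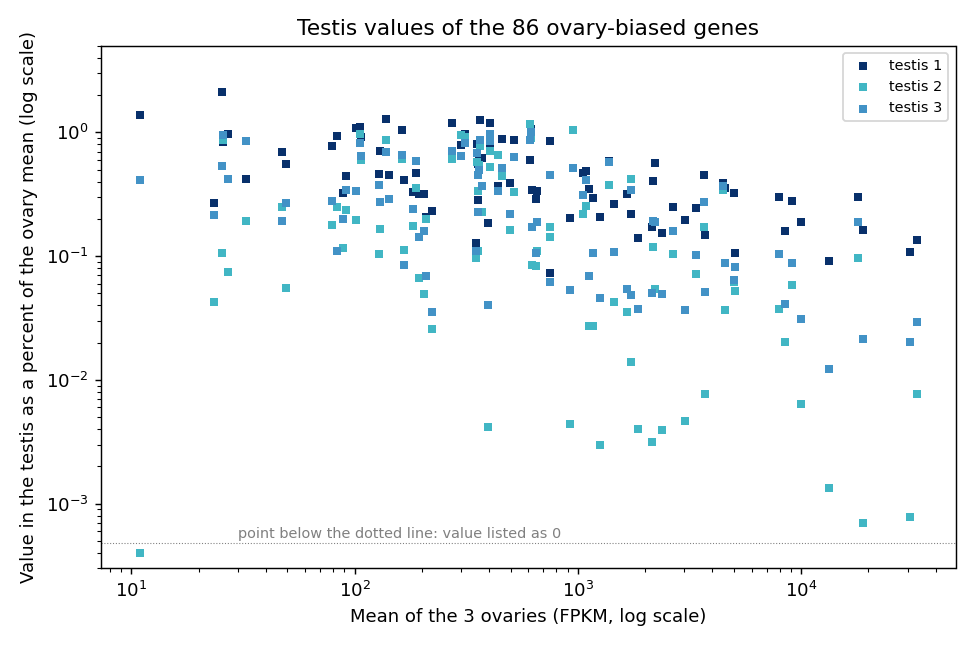
Value of each ovary-biased gene in a testis as a percent of its mean over the ovaries, against that mean, both on log scales. Testis 1 stays between 0.0733% and 2.14%, while testis 2 runs from 0 to 1.16%, with 13 genes between 0.000697% and 0.00768%.

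The limits did not use gene span directly. Span is the length of a locus from first to last base with introns included. It is still not independent of the limits, which act on FPKM, a unit scaled to gene length, and favour abundant genes. Among other genes with at least 1 FPKM in each ovary, the median span was 11879 bp from 1 to under 10 FPKM. It was 3484 bp from 1000 to under 10000 FPKM. Spans of the set had a median of 3982 bp and quartiles of 2436 and 8099 bp. The median was 6265 bp for the genes 10 to under 100 times higher in ovary, 8938 bp for genes with at least 1 FPKM in each ovary and 9505 bp for all genes. Spans of 2000 bp or less made up 19.8% of the set (17 genes), 10.8% of the genes 10 to under 100 times higher in ovary, 3.43% of genes with at least 1 FPKM in each ovary and 8.69% of all genes. At a mean of 100 FPKM or more in the ovaries these shares were 20.3% of 74 genes of the set, 10.8% of 111 genes 10 to under 100 times higher in ovary and 12.1% of all 527 others. Median spans were closer within the middle classes. From 100 to under 1000 FPKM the median span was 4844 bp in the set, against 4752 bp over the other genes of the class with at least 1 FPKM in each ovary. From 1000 to under 10000 FPKM it was 3239 bp against 3484 bp. In the lowest class the set was shorter, 3844 bp against 7318 bp, and the 5 most abundant genes had a median of 1679 bp, against 53731 bp over the 5 others of their class. None of these differences was tested.

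**Figure D5:**
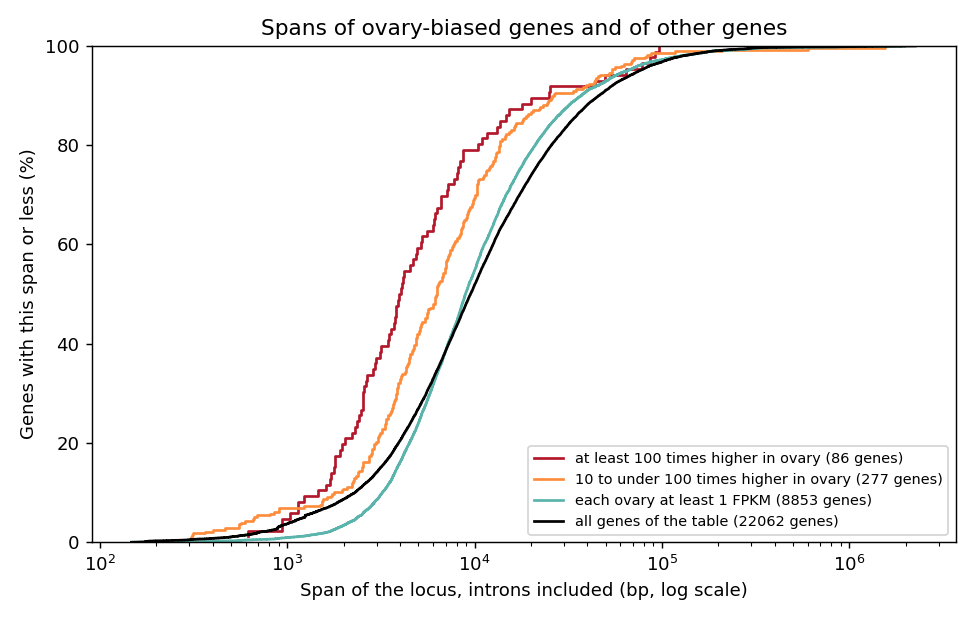
Cumulative percent of genes by span on a log axis, for the ovary-biased genes, genes 10 to under 100 times higher in ovary, genes with at least 1 FPKM in each ovary and all genes. The medians are 3982, 6265, 8938 and 9505 bp.

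The shortest spans were 617 bp on linkage group 4 (27749224 to 27749840), 619 bp on linkage group 1 (39591134 to 39591752) and the 933 bp of the abundant locus on linkage group 15. The locus on linkage group 4 had 4801, 4516 and 5637 FPKM in the ovaries, against 16.2, 3.08 and 3.19 FPKM in the testes. That on linkage group 1 had 104, 81.2 and 79.5 FPKM in the ovaries, against 0.285, 0.102 and 0.176 FPKM in the testes. These shortest loci thus fell in different abundance classes. Median spans of the set, given above, were shortest in the classes from 1000 and from 10000 FPKM. At the long end, after the gene on linkage group 16, stood a locus of 91979 bp on linkage group 14 and the abundant locus of 86381 bp on linkage group 6. The span of 32 of the 86 genes (37.2%) overlaps that of another gene, against 39.6% of all genes.

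Ovary-biased genes lay on all 24 linkage groups. Linkage groups 14 and 16 held most, with 7 each, and linkage groups 7 and 24 held 1 each. As a share of the genes on the linkage group this was 0.768% and 0.825% on linkage groups 14 and 16, against 0.115% and 0.134% on linkage groups 7 and 24. Linkage group 12, with 6 genes, had a share of 0.770%, about that of linkage group 14. Number and signal did not go together. Linkage group 20, with 5 genes, held 17.0%, 12.8% and 15.8% of the set's sum in ovaries 1, 2 and 3, and linkage group 10, with 3 genes, held 16.3%, 11.5% and 13.8%. The 7 genes of linkage group 14 held 1.48%, 1.91% and 1.77%.

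A minority of the set lay close together. There were 8 pairs with starts within 100 kb of each other on the same linkage group, and they took in 16 of the 86 genes. Within that distance of any gene of the set lay 778 genes, of which 2.06% belonged to the set, against 0.39% of all genes. With overlapping spans left out, 10 of 744 such genes (1.34%) belonged to it. The pairs were on linkage groups 2, 3, 12, 13, 14 and 23, with 1 each, and 20, with 2. No linkage group held a run of more than 2 such genes.

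In 3 pairs the spans overlap, so the same reads could have been assigned to either gene model. On linkage group 2, a gene from 19577292 to 19581807 lies inside the span of the abundant gene described above. It had 1743, 2567 and 2354 FPKM in the ovaries, against 12.6, 1.21 and 4.18 FPKM in the testes. It was lowest in ovary 1, where the outer gene was highest. On linkage group 23, a gene of 1801 bp (14004454 to 14006254) lies inside one of 25372 bp (14000412 to 14025783). The inner gene had 1392, 1906 and 1676 FPKM in the ovaries, against 5.27, 0.585 and 0.907 FPKM in the testes, and the outer one 109, 146 and 159 FPKM, against 1.75, 1.19 and 0.959 FPKM. Both were lowest in ovary 1. On linkage group 14, a gene from 15135806 to 15227784 had 2300, 1952 and 2231 FPKM in the ovaries, against 8.78, 2.56 and 4.14 FPKM in the testes. The gene inside it (15149122 to 15227642) had 138, 117 and 130 FPKM in the ovaries, against 0.595, 0.133 and 0.483 FPKM in the testes, with the ovaries in the same order.

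In the other 5 pairs the spans are separate. The closest follow each other on linkage group 13 with 1912 bases between them. The first is the steadiest gene on the values as deposited. The second (14583732 to 14588894) had 526, 912 and 806 FPKM in the ovaries, against 6.42, 1.29 and 3.36 FPKM in the testes. On these values the pair differed in spread between ovaries, and the second gene had the higher value in each testis. Spread depends on the scale, and that of the pair was not compared on other scales. On linkage group 20, neighbours 5738 bases apart were both lowest in ovary 1. The gene from 9371063 to 9382716 had 85.1, 278 and 219 FPKM in the ovaries, against 0.618, 0.129 and 0.279 FPKM in the testes. The gene from 9388455 to 9391886 had 123, 211 and 230 FPKM in the ovaries, against 0.888, 0.662 and 1.1 FPKM in the testes. Both lie within the span of a longer gene (9247995 to 9481115) with a mean of 12.3 FPKM in ovary and 24.8 FPKM in testis.

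On linkage group 3 a gene from 4410043 to 4413017 had 419, 580 and 550 FPKM in the ovaries, against 4.48, 1.72 and 3.26 FPKM in the testes. Its partner (4429103 to 4432250), with 1 other gene between them, had 77.5, 182 and 128 FPKM in the ovaries, against 0.909, 0.214 and 0.356 FPKM in the testes. In this pair ovary 1 was lowest and ovary 2 highest for both genes. The pair on linkage group 12 starts at 23903922 and 23992791 with 8 genes between. The first of those, from 23909508 to 23912827, starts 894 bases after the end of the ovary-biased gene and is the gene just outside the limit with a ratio of 88.0. That gene had 149, 234 and 202 FPKM in the ovaries, and the ovary-biased gene before it had 168, 249 and 199 FPKM.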

How the data were processed

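The members and the lists of comparison genes were chosen with earlier results of these data known. Per the labels' protocols, Trizol was used to isolate RNA for standard Illumina libraries. The submitters' processing notes name HISAT2 2.0.4 and StringTie 1.3.3b without their order or settings. The sources used here name no genome build, annotation or read filter. FPKM values were deposited by the authors for 22062 genes in 6 libraries, unpooled, and 0 columns belonged to no sample. The design text describes the animals as 3 males and 3 females, and replicates are these fish.

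From these values Python 3.11.15 with pandas 2.3.3 computed means, SDs, ratios of means, shares of the summed FPKM, coefficients of variation and spans; matplotlib 3.10.9 drew the plots. The selection, scaling and neighbour steps were tested on simulated data. No significance test was run, since the selection uses the contrast of ovary with testis. With depth unknown, no counting interval was computed. FPKM is relative, so abundant genes lower all others in a library.

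Named loci were the 10 most abundant members, the 5 with the largest ratios, the 4 most and 4 least variable between ovaries, the 3 longest and 3 shortest, the 6 closest pairs, and those nearest the limits. The gene on linkage group 8, those on linkage group 4 at 33091946 and on linkage group 12, and the genes that overlap members, were named after their values were seen. Lists of ovary and testis marker genes could not be used, since identifiers carry no names. Alternatives were other scalings (TPM, median ratios over genes above 0 in every library, quantiles), filters, pseudocounts, limits and distances, and each library left out.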

Additional observations from a re-analysis of the deposited data

How the results depend on the processing

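Counts and medians are called stable here when within 1.5 times the reported value, and the share of the ovary when within 1 SD. Left-out libraries for spans, pairs and linkage groups, median ratios over genes at 1 FPKM or more in every library, and other selections for linkage groups were added after the data were seen. The count of 86 genes was 213 with median ratio scaling and 102 with median ratios over genes at 1 FPKM or more in every library, each including all 86. It was 126 after quantile normalization, 70 with TPM, 58 with a pseudocount of 1 FPKM, and 83 to 87 without 1 library. With median ratio scaling the most genes on 1 linkage group were 14, against 7. The share of the summed ovary FPKM was 30.7%, but 18.7% for genes with no overlapping span and 15.3% without the 5 most abundant; without 1 library it was 29.3% to 31.8%. The median coefficient of variation was 16.6%, but 37.4% with median ratio scaling and 32.6% with that over genes at 1 FPKM or more; without 1 ovary it was 8.89% to 20.5%. Pairs within 100 kb numbered 8, but 5 by adjacency in gene order, 5 with separate spans, 16 with a ratio of at least 50 and 5 with at least 200, where fewer or more genes enter by construction; without 1 library there were 7 to 9. The cause of the shifts with scaling was not tested. The order of the testes held for 57 to 67 genes under the scalings. Without testis 1 the ratio of means moved by over 1.5 times for 42 of 86 genes, yet 85 stayed at 100 or more; it moved that far for 1 gene without ovary 2 and 1 without testis 3, and for none without another library. No paired analysis was possible because no test was run and each gonad is that of another fish. Unknown depth leaves counting error unmeasured for the low testis values.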
